A study of Mus musculus with 7 samples.

Results

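The 13 mRNAs encoded by mouse mitochondrial DNA, and 20 nuclear genes whose products copy, transcribe, process or translate that genome, were examined in whole hearts of newborn mice. These are 33 of the 13788 genes measured. They were chosen by symbol: every row for an Nd, Co, Cytb or Atp gene of the mitochondrial chromosome, and the rows found for 24 listed nuclear symbols. Mterf2, Mterf3, Mterf4 and Twnk had no row under those symbols, and Twnk, the mitochondrial DNA helicase Twinkle, stands in the table under its older symbol Peo1, which the list also held. The edKO hearts came from C57BL/6 mice at postnatal day 0 whose cardiomyocytes lack Rxra and Rxrb, the genes of 2 retinoid X receptors (RXRab-/-, n = 4, replicates 5, 6, 15 and 33). The WT hearts came from wild-type C57BL/6 mice of the same age (n = 3, replicates 1, 2 and 28). The labels name no treatment and do not give the driver of the deletion, the sex, the litter or any allele carried by WT. The study's title concerns how γ-linolenic acid in milk matures cardiac metabolism, and the question put to these hearts is which transcripts need the 2 receptors at birth. Whole hearts hold cells that keep both receptor genes, and in such RNA fewer cells of a type and less RNA per cell cannot be told apart.

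Mitochondrial DNA is a small circle that encodes subunits of respiratory complexes I, III and IV and of ATP synthase, together with the rRNAs and tRNAs needed to translate them. The RNA polymerase POLRMT, with the factors TFAM and TFB2M, transcribes each strand as a long precursor, and excision of the tRNAs releases most of the mRNAs. The precursor therefore sets a common supply, while stability, polyadenylation and decay set the level of each mRNA. All proteins of this machinery are nuclear gene products that are imported into the organelle. Heart muscle is known for its dense mitochondria, and their content and oxidative capacity increase around birth.

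Neighbouring mitochondrial mRNAs share bases, so that a read from the shared stretch belongs to both. The overlaps are shown because they bear on how reads divide between mt-Atp8 and mt-Atp6 (43 shared bases, chrM:7927-7969) and between mt-Nd4l and mt-Nd4 (7 shared bases, chrM:10167-10173). The plus strand of GRCm38 is given with 20 bases on either side and the shared bases in capitals.
mt-Atp8 and mt-Atp6, chrM:7907-7989: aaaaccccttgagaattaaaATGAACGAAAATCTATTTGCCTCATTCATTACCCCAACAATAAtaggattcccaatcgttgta
mt-Nd4l and mt-Nd4, chrM:10147-10193: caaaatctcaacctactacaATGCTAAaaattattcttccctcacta
The first capitals in both lines, ATG, begin the downstream reading frame, and the last capitals, TAA, end the upstream one. Both pairs are known to stay together as bicistronic mRNAs. Of the 37 genes annotated on the mitochondrial chromosome in GENCODE M21, 28 lie on the plus strand, and mt-Nd6, at chrM:13552-14070, is the mRNA among them that is read from the other strand.

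A second kind of sharing is between chromosomes. A stretch of the minus strand of chromosome 1 holds annotated copies of mitochondrial genes, and 5 of these copies have rows of their own in the table, given by identifier only and named here from GENCODE M21. Gm28661 (chr1:24614885-24615565), Gm28437 (chr1:24613189-24613971) and Gm10925 (chr1:24613974-24614651) are identical to mt-Co2 over 681 bases, to mt-Co3 over 783 bases and to mt-Atp6 over 678 bases. Gm28438 (chr1:24612775-24613119) differs from mt-Nd3 at 1 of 345 bases, T3C, counted from the first base of the mRNA with the base of the mRNA given first. Gm29216 (chr1:24615706-24616197) matches the last 492 bases of mt-Co1 with 6 differences, T1056A, C1057T, A1059G, A1060G, C1062A and A1066T, all near its start. The first 61 bases of a pair, the length of a read here, show what a read can and cannot tell apart, with differing bases in capitals.
mt-Co2: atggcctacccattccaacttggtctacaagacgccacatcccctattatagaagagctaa
Gm28661: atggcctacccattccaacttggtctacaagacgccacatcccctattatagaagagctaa
mt-Nd3: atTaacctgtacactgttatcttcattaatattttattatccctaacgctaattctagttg
Gm28438: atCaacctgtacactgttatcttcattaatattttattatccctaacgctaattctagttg
mt-Co1 from base 1054: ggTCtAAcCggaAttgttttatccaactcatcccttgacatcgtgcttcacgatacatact
Gm29216: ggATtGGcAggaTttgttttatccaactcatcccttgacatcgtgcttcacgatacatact
Of the 61-nt windows of mt-Co2, 621 also occur in Gm28661, and of those of mt-Nd3, 282 occur in Gm28438, so that reads from these windows cannot be separated from the copy by sequence. The copies of mt-Nd4 (Gm28439) and mt-Nd4l (Gm10222) are identical over 876 and 294 bases and have no row in the table. Of all 61-nt windows of an mRNA, 100% in mt-Co2, 99.9% in mt-Co3, 99.5% in mt-Atp6, 98.7% in mt-Nd4l, 97.9% in mt-Nd3, 61.9% in mt-Nd4 and 46.1% in mt-Co1 also occur in transcripts of other genes. The share was 7.06% in mt-Nd2 and 4.14% in mt-Nd5, and 0% in mt-Atp8, mt-Cytb, mt-Nd1 and mt-Nd6. This share cannot count a stretch shorter than a window, such as the 43 bases that mt-Atp8 shares with mt-Atp6. For mt-Atp8 the 0% therefore does not mean that every read belongs to it alone.

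Levels are the deposited normalised reads per 1000000, and the reads recovered from them came to between 12108464 and 24912403 per library. A count of 3 reads, taken as the floor, equals 0.122 to 0.262 on this scale (counting error only), and the least covered member, Mterf1a, had at least 34 reads in every library. Rxra, of the deleted pair, stood at 66.1 ± 6.74 in edKO and 61.6 ± 1.99 in WT (limma adjusted p = 0.632) and Rxrb at 38.9 ± 4.000 in edKO and 48.2 ± 3.18 in WT (adjusted p = 0.139) and the groups apart for Rxrb. These totals over whole genes, in tissue where other cells keep the genes, do not check the genotype labels. Differences below are on the scale log2(value + 1), edKO minus WT, tested with limma across all 13788 genes, 2-sided, with Benjamini-Hochberg adjustment and a threshold of 0.05. Means carry the SD, with n = 4 edKO and n = 3 WT throughout.

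None of the 33 genes passed the test. Across all genes 580 passed, 4.21% (287 higher, 2.08%, and 293 lower, 2.13%). The 13 mitochondrial mRNAs all had positive differences, between 0.084 for mt-Nd3 and 0.39 for mt-Nd4l, with a median of 0.31. Over all genes the median was -0.0036, with 49.3% of differences above 0. For these mRNAs the limma adjusted p lay between 0.352 and 0.794, none was under 0.05 before adjustment (19.2% of all genes were), and for none did the groups stand apart (17.4% of all genes did). The 20 nuclear genes split into 9 positive and 11 negative differences with a median of -0.033 and a range of -0.27 to 0.34. edgeR, DESeq2 and limma voom on the recovered reads called 0 of the 33 as well, while they called 3.87%, 7.63% and 3.11% of all genes. At an unadjusted p under 0.05 DESeq2 held mt-Co1, mt-Co2, mt-Co3 and mt-Cytb (18.6% of all genes), voom mt-Co2 and mt-Co3 (17.7%) and edgeR no mitochondrial mRNA (18.8%). With library weights 5 of the 13 were under it (25.4% of all genes), and 0 passed after adjustment (9.31% of all genes).

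**Figure D1:**
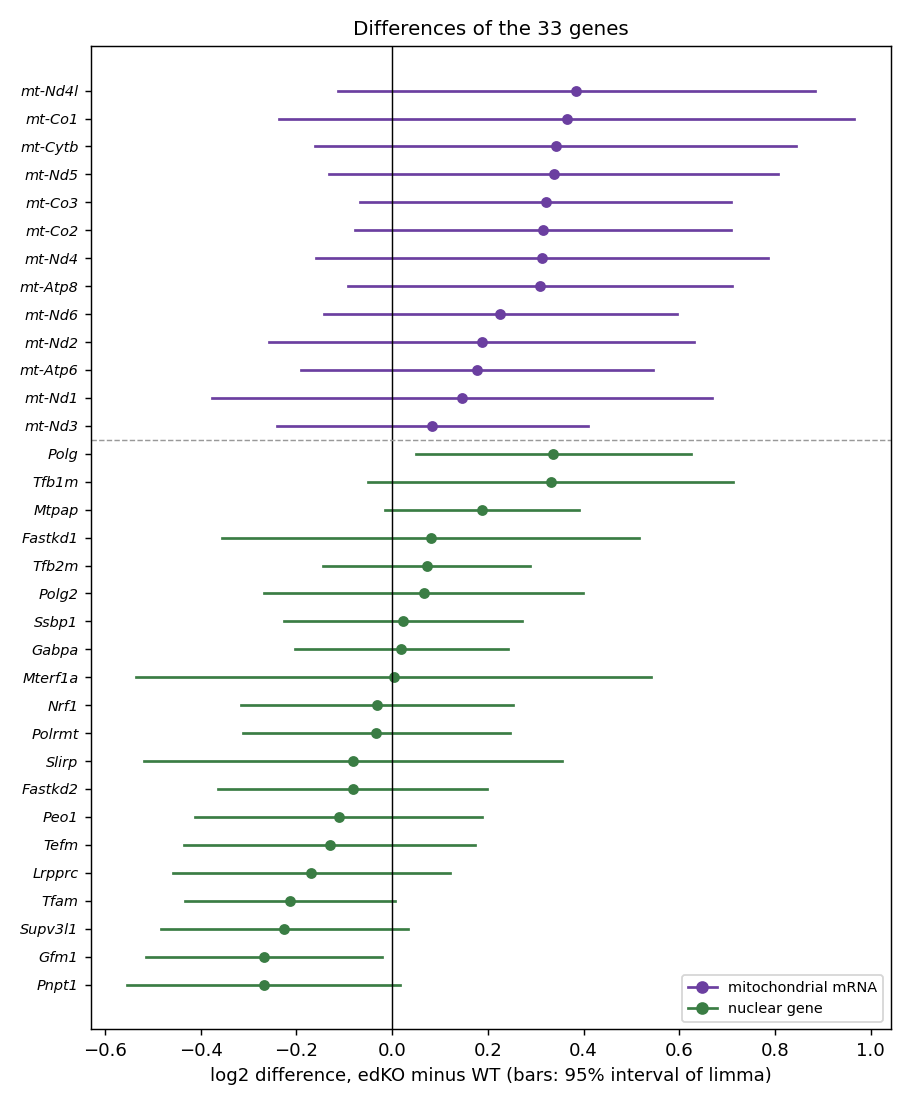
Difference of each of the 33 genes on the log2(value + 1) scale, edKO minus WT, with the 95% interval of limma; mitochondrial mRNAs above the dashed line, nuclear genes below it. All 13 mitochondrial points lie right of 0 and every one of their intervals spans 0, while the nuclear points lie on both sides and the intervals of Polg and Gfm1 do not reach 0.

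Summed over the 13 mRNAs, the level was 128899, 96558, 109382 and 110988 in edKO replicates 5, 6, 15 and 33, against 117235, 77928 and 80369.7 in WT replicates 1, 2 and 28. As a share of recovered reads this was 12.2, 9.82, 10.9 and 10.9% in edKO and 11.3, 8.12 and 8.52% in WT. The groups overlapped through WT replicate 1, which stood above 3 of the 4 edKO libraries, while WT replicates 2 and 28 stood below all 4. This held gene by gene: WT replicates 2 and 28 were below every edKO library for 13 of 13 mRNAs, and WT replicate 1 was above at least 2 edKO libraries for 12 and above all of them for 3. The highest of the 7 libraries was edKO replicate 5 for 10 mRNAs and WT replicate 1 for the other 3, and the lowest was WT replicate 2 for 10 and WT replicate 28 for 3. The 13 values within a library thus moved together, and mRNAs that share precursors are not 13 separate tests of the genotype. The summed level of 7 erythroid markers was also highest in edKO replicate 5 (53861) and lowest in WT replicate 2 (24103). For these markers edKO replicate 33 (27777) lay below WT replicate 28 (28388), unlike for the mRNAs. The part of the markers in the mRNA values was not tested. The median difference was 0.49 without WT replicate 1, 0.17 without WT replicate 2 and 0.22 without WT replicate 28. Without WT replicate 1, 12 of 13 mRNAs (all but mt-Nd1) were under an unadjusted limma p of 0.05, against 15.3% of all genes. Still 0 passed after adjustment, when 1.81% of all genes did (lowest adjusted p 0.0804, mt-Atp8). Leaving out any other single library put no mitochondrial mRNA under that unadjusted p. The groups overlapped through WT replicate 1, so the count without it is not separate evidence of a difference.

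**Figure D2:**
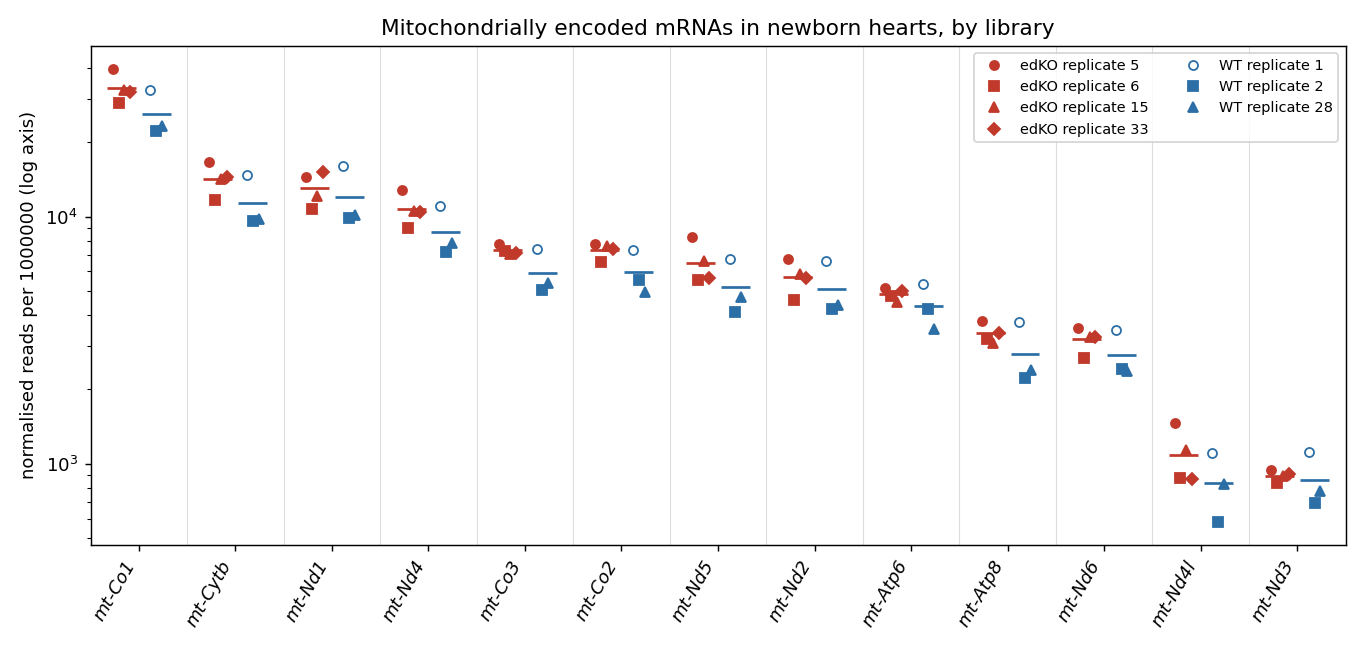
Normalised reads per 1000000 (log axis) of the 13 mitochondrial mRNAs in each library, edKO in red and WT in blue, with a bar at the group mean. WT replicate 1 (open circle) stands among or above the edKO libraries, and WT replicates 2 and 28 stand below every edKO library.

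The mRNAs of complex IV and complex III, cytochrome c oxidase and the cytochrome bc1 complex, come first. mt-Co1, which encodes the catalytic subunit of complex IV and was the most abundant member, stood at 39649, 28794, 32500.5 and 31759.9 in edKO, against 32620.1, 22128 and 23222 in WT. Its difference was 0.36 (1.29-fold, 95% interval 0.849 to 1.95; limma adjusted p = 0.503). edKO replicate 5 was the highest, and WT replicate 1 lay above the other 3 edKO libraries. mt-Co2, the subunit that takes electrons from cytochrome c, stood at 7715, 6552, 7569 and 7401 in edKO and 7315, 5553 and 4959 in WT (difference 0.32, adjusted p = 0.370). mt-Co3, the third mitochondrial subunit of the complex, stood at 7766, 7291, 7066 and 7145 in edKO and 7375, 5050.3 and 5384 in WT (difference 0.32, adjusted p = 0.352, the lowest of the 13). In mt-Co3 the 4 edKO libraries lay close together and WT replicate 1 fell inside their range. mt-Cytb, cytochrome b of complex III, stood at 16591, 11711, 14253 and 14442 in edKO, against 14710.2, 9624 and 9817 in WT, with a difference of 0.34 (adjusted p = 0.450). No 61-nt window of mt-Cytb occurs elsewhere, and its order of libraries was that of mt-Co1 but for edKO replicates 15 and 33.

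The 7 complex I mRNAs encode membrane subunits of the proton-pumping arm of NADH dehydrogenase. mt-Nd4l had the largest difference of the 13, 0.39 (1.31-fold, 95% interval 0.925 to 1.84; adjusted p = 0.388), from 1462, 874, 1142 and 868 in edKO and 1109.9, 581 and 829 in WT. Its bicistronic partner mt-Nd4 stood at 12844, 8968, 10558 and 10391 in edKO and 11082, 7204 and 7790.3 in WT (difference 0.31). In both the 4 edKO libraries spread about as widely as the WT libraries. mt-Nd5, the downstream gene on the same strand, had a difference of 0.34 (6515 ± 1267 in edKO and 5204 ± 1387 in WT). mt-Nd1 stood at 14433, 10721, 12062 and 15128 in edKO and 15944, 9906 and 10177 in WT, so WT replicate 1 was the highest of all 7 (difference 0.15). mt-Nd2 averaged 5706 ± 875 in edKO and 5075 ± 1345 in WT (difference 0.19). mt-Nd6, alone on the other strand, stood at 3549, 2681, 3270.3 and 3259 in edKO and 3483, 2419.5 and 2369 in WT, with a difference of 0.23 (adjusted p = 0.498) that lay within the range of the other mRNAs. It shares 14 bases with mt-Nd5 on the opposite strand. Without a stated strand setting, reads from the opposite strand of mt-Nd6 cannot be told apart from its own. mt-Nd3 had the smallest difference, 0.084, with 942, 839, 890.1 and 912 in edKO and 1118, 694 and 776 in WT. WT replicate 1 exceeded all 4 edKO libraries in mt-Nd3, and without WT replicate 2 its difference was -0.057. Quantile normalisation, which forces the libraries to 1 distribution, gave the 13 differences a median of 0.10, in which mt-Nd3 became 0.10 and mt-Nd4l 0.40, mt-Nd1 became -0.063, and mt-Co1, the top value of every library, became 0 by construction.

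The ATP synthase pair encodes membrane subunits of the enzyme, mt-Atp6 the one that lines the proton path. mt-Atp8 averaged 3371 ± 309.5 in edKO and 2789 ± 828 in WT (difference 0.31, adjusted p = 0.391). mt-Atp6, on the same bicistronic mRNA, averaged 4866 ± 286 in edKO and 4364 ± 926 in WT (difference 0.18, adjusted p = 0.607). The row of the chromosome 1 copy of mt-Atp6, Gm10925, stood at 13936, 12231, 11463 and 14695 in edKO and 14426, 8381 and 8798 in WT, well above the row of mt-Atp6 itself. With both rows added, mt-Atp6 had a difference of 0.30, next to 0.31 for mt-Atp8.

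All 5 copies held large values. How reads that sequence cannot assign were divided between rows of the 2 chromosomes was not tested. The mitochondrial row held 25.5 to 28.2% in edKO and 27.1 to 33.5% in WT of the mt-Atp6 pair, 33.9 to 40.9% in edKO and 32.4 to 37.3% in WT of the mt-Co3 pair, 38.1 to 45.1% in edKO and 37.8 to 41.1% in WT of the mt-Co2 pair and 36.6 to 44.1% in edKO and 38.3 to 42.4% in WT of the mt-Nd3 pair. Of the mt-Co1 pair, whose copy covers the 3′ part only, it held 91.1 to 93.7% in edKO and 89.5 to 93.8% in WT. In all 5 pairs the edKO and WT ranges overlapped. WT replicates 2 and 28 were the lowest libraries for Gm10925, Gm28661 and Gm28438, and for Gm28437 edKO replicate 15 lay between them. Gm29216 stood at 2646, 2735, 3158 and 2664 in edKO and 2170.1, 2585 and 1819.8 in WT, with every edKO library above every WT library (difference 0.36, limma adjusted p = 0.199). The groups overlapped for the other copies, and 8.41% of all genes were apart and higher in edKO. Whether any reads of the copy rows came from chromosome 1 was not tested. With each copy added to its mRNA, an alternative chosen after seeing the data, the median of the 13 differences was 0.30, all 13 stayed positive and 0 passed. mt-Co3 then had a difference of 0.17 (adjusted p = 0.741), against 0.32 for its row alone, mt-Co2 0.23, mt-Co1 0.36 and mt-Nd3 0.048. With the copies the mitochondrial mRNAs took a share of reads of 16.2, 13.4, 14.3 and 15.4% in edKO and 15.6, 11.3 and 11.6% in WT.

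**Figure D3:**
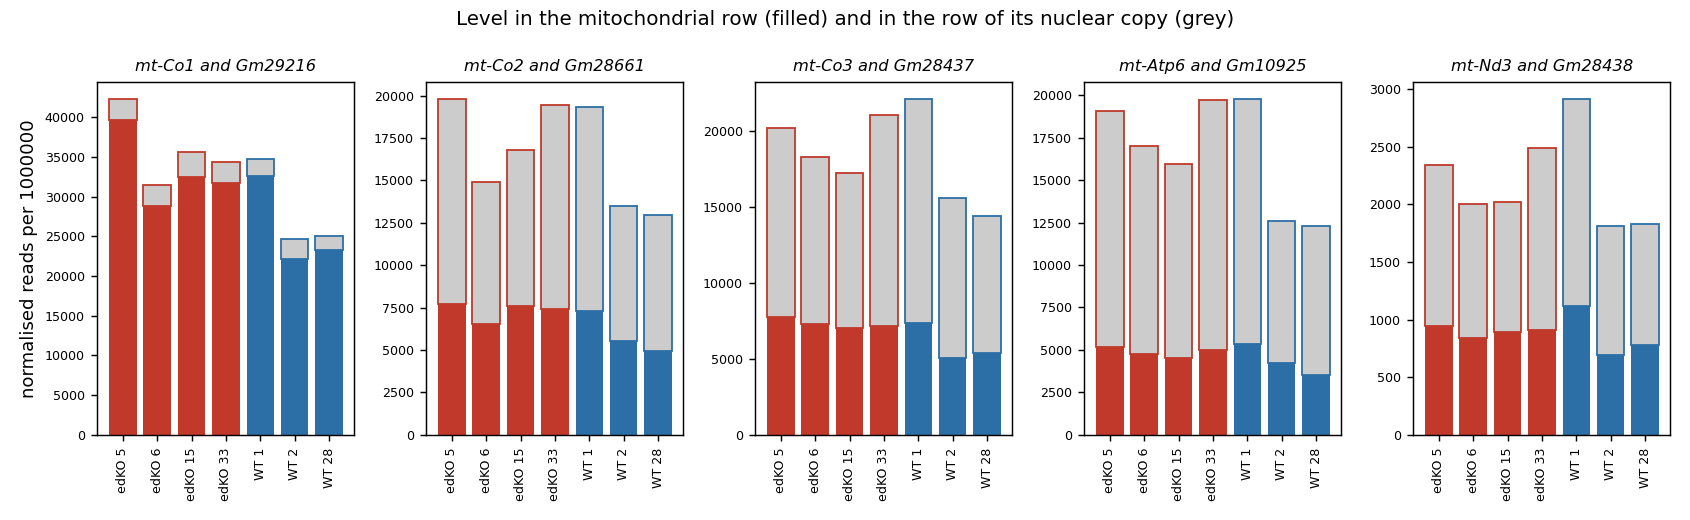
Normalised reads per 1000000 in the row of each mitochondrial mRNA (filled) and in the row of its chromosome 1 copy (grey, stacked on it), by library, edKO in red and WT in blue. In all pairs but that of mt-Co1 the grey part is larger than the filled part in every library.

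Levels of different mRNAs were compared per kilobase of annotated exon, with the copies added. mt-Atp6 (26354 ± 2575 in edKO and 21878 ± 6210.1 in WT, normalised reads per 1000000 per kilobase), mt-Co2 (25918 ± 3396 in edKO and 22341 ± 5168 in WT) and mt-Co3 (24508 ± 2219.9 in edKO and 22182 ± 5289.6 in WT) were the highest, followed by mt-Co1, at 23286 ± 2947 in edKO and 18240.4 ± 3706 in WT, and each of these neighbours lay within the spread of the next. mt-Atp8, mt-Nd1 and mt-Cytb formed a middle group, at 16525, 13674 and 12455 in edKO and 13669, 12549 and 9951 in WT. mt-Nd4, mt-Nd3, mt-Nd6 and mt-Nd2 followed in that order of their means over all libraries, between 5497 and 7758 in edKO and between 4889 and 6308 in WT, each within the spread of its neighbour. The lowest were mt-Nd4l, at 3657 ± 946 in edKO and 2829 ± 891 in WT, and mt-Nd5, at 3572 ± 695 in edKO and 2853 ± 760.2 in WT. The copies decide this order: without them mt-Co1 came first and mt-Nd3 last, at 2574 in edKO and 2479 in WT. The copies of mt-Nd4 and mt-Nd4l are not analysed here.

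The composition of the pool was nearly the same in both groups. As a share of the summed level of the 13 mRNAs, mt-Co1 took 28.6 to 30.8% in edKO and 27.8 to 28.9% in WT, mt-Cytb 12.1 to 13.03% in edKO and 12.2 to 12.5% in WT and mt-Nd1 11.03 to 13.6% in edKO and 12.7 to 13.6% in WT. The groups stood apart for 2 of 13 shares, both lower in edKO: mt-Nd3 at 0.730, 0.869, 0.814 and 0.822% in edKO and 0.954, 0.891 and 0.965% in WT, and mt-Nd2 at 5.22, 4.76, 5.36 and 5.08% in edKO and 5.65, 5.41 and 5.45% in WT. Over all genes the groups stood apart in level, rather than share, for 17.4%, and apart and lower in edKO for 9.04%. With the copies in the pool, mt-Nd3 remained apart (1.36, 1.52, 1.40 and 1.60% in edKO and 1.79, 1.67 and 1.68% in WT) and mt-Nd2 overlapped (3.48 to 4.06% in edKO and 3.89 to 4.08% in WT). Shares of a sum depend on each other and were not tested.

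The mitochondrial rRNAs, which come from the start of the same strand, had differences near 0. mt-Rnr1, the small rRNA, stood at 1269.9, 1591, 859 and 1063 in edKO and 1319.6, 1304 and 1031 in WT (difference -0.055, adjusted p = 0.901). mt-Rnr2, the large rRNA, stood at 2709, 2563, 1879 and 1894 in edKO and 2777, 2173 and 2252 in WT (difference -0.10, adjusted p = 0.787). Both were low for rRNAs, at 1252 and 1429 per kilobase in edKO and 1275 and 1518 in WT, below every mRNA, so their levels here do not describe the rRNA content of the tissue. The ratio of the 13 mRNAs to the 2 rRNAs was 32.4, 23.2, 39.9 and 37.5 in edKO, against 28.6, 22.4 and 24.5 in WT, with overlapping groups, and 17.01, 11.6, 20.8 and 19.9 in edKO and 15.5, 11.6 and 12.9 in WT with only the mRNAs that have no copy row. Of the 22 mitochondrial tRNA genes, 9 had a row. mt-Te averaged 171 ± 23.8 in edKO and 136 ± 30.03 in WT (difference 0.34, adjusted p = 0.236) and mt-Ts1 141 ± 17.1 in edKO and 109 ± 18.2 in WT (difference 0.38, adjusted p = 0.129), while the other 7 were scarcer still. No tRNA row passed the test. Before adjustment the limma p was 0.0407 for mt-Te and 0.0127 for mt-Ts1, where 19.2% of all genes were under 0.05. Whether the reads of these rows came from a tRNA, from a precursor or from the opposite strand was not tested.

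Respiratory complexes join mitochondrial and nuclear subunits, and the balance of their mRNAs was computed as a ratio of summed levels. For complex III, mt-Cytb over 9 nuclear subunits gave 3.59, 2.71, 3.15 and 3.09 in edKO, against 2.66, 2.03 and 2.28 in WT. For complex IV, the 3 mitochondrial mRNAs with their copies over 15 nuclear subunits gave 12.4, 10.7, 11.3 and 11.3 in edKO, against 9.80, 8.85 and 9.05 in WT. In both every edKO library lay above every WT library, WT replicate 1 included. Among all genes the groups stood apart in level, rather than ratio, for 17.4%, and apart and higher in edKO for 8.41%. Without the copies the complex IV ratio was 8.30, 7.02, 7.62 and 6.998 in edKO and 6.08, 5.38 and 5.79 in WT, also apart. For complex I, 7 mitochondrial mRNAs with the copy over 36 nuclear subunits gave 5.46, 4.07, 4.68 and 4.61 in edKO and 4.35, 3.27 and 3.74 in WT, and the groups overlapped. ATP synthase, with 17 nuclear subunits, had 1.37, 1.25, 1.16 and 1.39 in edKO and 1.28, 0.875 and 0.921 in WT, again overlapping. WT replicate 1 also had the highest summed level of nuclear subunits in all 4 complexes, which lowers its ratios. For complex I these sums were 9090.1, 8686, 8879 and 9412 in edKO, against 11016, 9234 and 8593 in WT. Members of these sums were chosen with earlier results known, so the ratios are given without a test. Of the nuclear subunits, 1 (Cox6b2) passed the test.

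**Figure D4:**
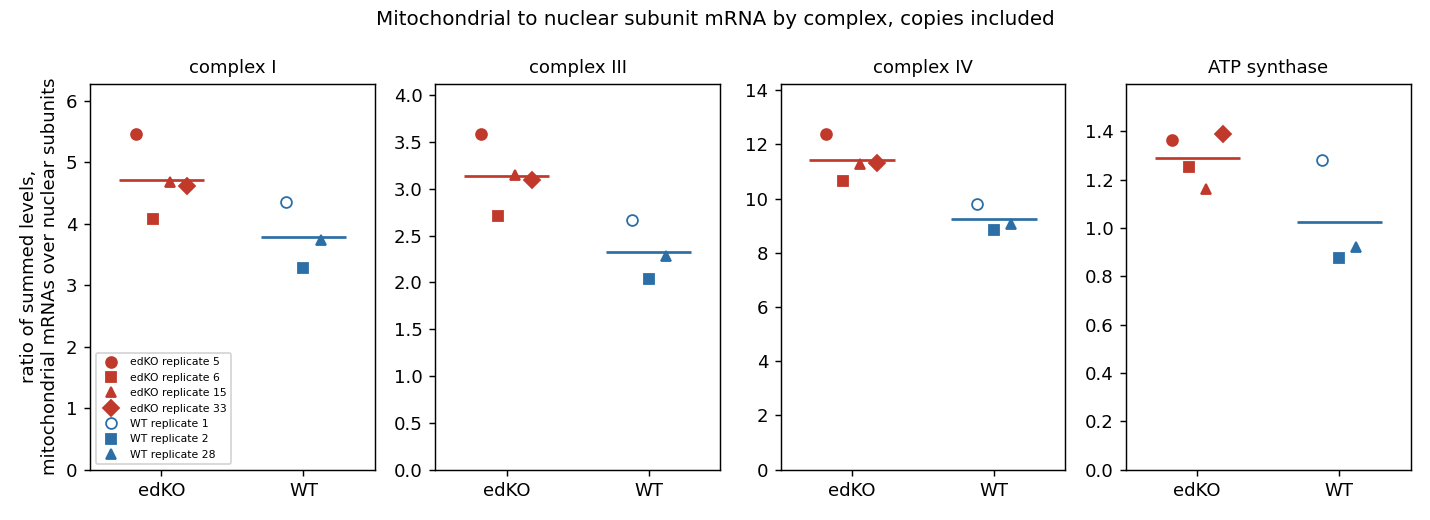
Ratio of the summed level of mitochondrial mRNAs, copies included, to that of nuclear subunits for 4 complexes, by library, edKO in red and WT in blue, with a bar at the group mean. The groups are apart for complex III and complex IV and overlap for complex I and ATP synthase.

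Among the nuclear genes, transcription factors of the mitochondrial genome come first. Tfam (chr10:71225464-71238280, GRCm38), which bends and packages mitochondrial DNA and starts its transcription, stood at 39.04, 45.3, 39.2 and 36.03 in edKO, against 46.4, 44.7 and 47.6 in WT. Its difference was -0.21 (0.863-fold, 95% interval 0.741 to 1.005; limma adjusted p = 0.277), and of the edKO libraries replicate 6 reached the WT range. The sign was opposite to that of the 13 mitochondrial mRNAs, and neither they nor Tfam passed the test. Polrmt, the RNA polymerase, averaged 25.1 ± 3.68 in edKO and 25.5 ± 1.19 in WT (difference -0.033, adjusted p = 0.913). Tfb2m, which melts the promoter with it, averaged 39.6 ± 2.73 in edKO and 37.6 ± 2.46 in WT (difference 0.072), and 30.5% of its 61-nt windows occur also in the predicted gene Gm1818. Tefm, the elongation factor, averaged 13.3 ± 1.87 in edKO and 14.5 ± 0.831 in WT (difference -0.13). Tfb1m, a methyltransferase that modifies the small mitochondrial rRNA, stood at 9.20, 9.61, 8.53 and 6.13 in edKO and 5.74, 7.12 and 6.29 in WT (difference 0.33, adjusted p = 0.327). For Tfb1m edKO replicate 33 fell inside the WT range and the other 3 lay above it. Mterf1a, a termination factor, was the scarcest member, at 3.60 ± 1.13 in edKO and 3.54 ± 0.940 in WT (difference 0.0031), and shares 23.98% of its windows with Mterf1b.

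Under their older symbols, and outside the rule, the other terminator family genes were matched by identifier. Mterf3 (listed as Mterfd1) averaged 25.8 ± 2.81 in edKO and 22.6 ± 2.33 in WT, Mterf2 (Mterfd3) 13.8 ± 2.31 in edKO and 11.4 ± 1.25 in WT and Mterf4 (Mterfd2) 19.9 ± 2.52 in edKO and 21.5 ± 2.29 in WT, with adjusted p of 0.444, 0.430 and 0.692 by limma. Mterf1b averaged 0.959 ± 0.403 in edKO and 2.06 ± 0.624 in WT (difference -0.65, adjusted p = 0.170).

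The replication genes gave the lowest p of the members. Polg (chr7:79446231-79466362), the catalytic subunit of the mitochondrial DNA polymerase, stood at 63.3, 56.5, 67.7 and 52.1 in edKO, against 39.03, 54.99 and 48.2 in WT. The difference was 0.34 (1.26-fold, 95% interval 1.04 to 1.54; unadjusted p = 0.0252, limma adjusted p = 0.187). edKO replicates 5, 6 and 15 lay above every WT library and replicate 33 did not. Without that library the adjusted p was 0.0778, the lowest of any member under any setting run. Polg2, the accessory subunit, averaged 5.92 ± 0.333 in edKO and 5.63 ± 0.728 in WT (difference 0.066). Peo1, the helicase Twinkle, averaged 24.4 ± 4.15 in edKO and 26.1 ± 1.61 in WT (difference -0.11), and 11.6% of its windows occur in other genes, mostly Mrpl43 on the opposite strand. Ssbp1, which coats single-stranded mitochondrial DNA, averaged 30.9 ± 3.19 in edKO and 30.4 ± 2.51 in WT (difference 0.023). The last 3 had adjusted p of 0.847, 0.699 and 0.937.

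Genes of RNA stability, polyadenylation and decay included 2 of the 3 nuclear members whose groups stood apart, 1 of 20 higher and 2 lower, against 8.41% and 9.04% of all genes. Mtpap, the mitochondrial poly(A) polymerase, stood at 39.3, 42.3, 41.4 and 37.6 in edKO, against 33.9, 36.97 and 34.4 in WT (difference 0.19, SE 0.092; 1.14-fold; limma adjusted p = 0.297). All 4 edKO libraries lay above the 3 WT libraries, the nearest by little, and 19.9% of its windows occur in other annotated transcripts, mostly Gm26865 on the opposite strand. Pnpt1 (chr11:29130744-29161828), the exonuclease of the mitochondrial degradosome, stood at 27.9, 23.4, 27.9 and 20.1 in edKO, against 28.4, 31.6 and 29.5 in WT (difference -0.27, SE 0.13; 0.831-fold; limma adjusted p = 0.291). All edKO libraries lay below all WT libraries. Supv3l1, the helicase that works with it, stood at 25.4, 31.4, 33.2 and 29.1 in edKO and 34.4, 38.5 and 31.8 in WT (difference -0.22, adjusted p = 0.328), with overlapping groups. Lrpprc, whose product keeps mitochondrial mRNAs stable, had the highest level of the 20 and averaged 144 ± 23.6 in edKO and 161 ± 17.4 in WT (difference -0.17, adjusted p = 0.521). Slirp, its partner, averaged 25.5 ± 5.37 in edKO and 27.5 ± 8.69 in WT (difference -0.081). Of the windows of Slirp 90.5% occur in other genes, nearly all in Snw1 on the opposite strand, which averaged 70.9 ± 3.19 in edKO and 68.9 ± 1.62 in WT, and without a stated strand setting the reads of the 2 genes cannot be told apart. Fastkd1 and Fastkd2, members of a family of mitochondrial RNA-binding proteins, averaged 33.8 ± 9.53 in edKO and 30.9 ± 3.08 in WT (difference 0.081), and 23.4 ± 3.80 in edKO and 24.6 ± 0.419 in WT (difference -0.082).

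Gfm1 (chr3:67430096-67476529), the elongation factor that moves the mitochondrial ribosome along the mRNA, had the highest nuclear level per kilobase of annotated exon, at 27.2 ± 3.69 in edKO and 32.5 ± 1.91 in WT. That length joins the exons of all annotated transcripts of a gene, 4419 bases for Gfm1 and 8360 for Ssbp1. It can exceed the length of the mRNA present, so this ranking depends on the annotation. On the scale per 1000000 Gfm1 stood at 120.2, 124, 138 and 98.3 in edKO, against 139, 154 and 139 in WT, and the 4 edKO libraries were all below the 3 WT libraries. The difference was -0.27 (0.831-fold, 95% interval 0.701 to 0.985; unadjusted p = 0.0358, limma adjusted p = 0.221). Leaving out single libraries gave differences of -0.34 to -0.18. Of the nuclear respiratory factors, which act on many of these genes, Nrf1 averaged 21.3 ± 2.10 in edKO and 21.9 ± 2.998 in WT (difference -0.032) and Gabpa, the DNA-binding subunit of GABP, averaged 72.5 ± 5.30 in edKO and 71.7 ± 8.37 in WT (difference 0.020), with adjusted p of 0.917 and 0.939.

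**Figure D5:**
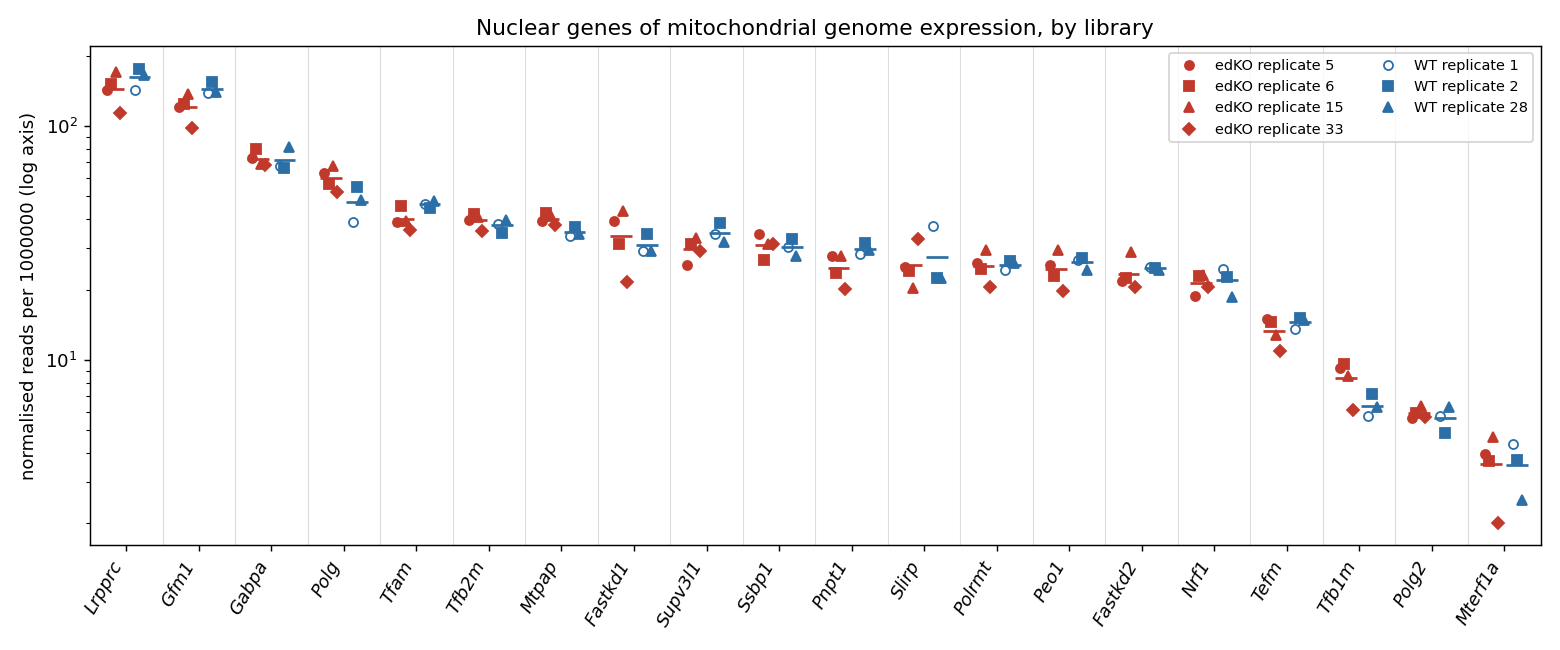
Normalised reads per 1000000 (log axis) of the 20 nuclear genes in each library, edKO in red and WT in blue, with a bar at the group mean. For Mtpap all edKO points lie above all WT points, for Gfm1 and Pnpt1 all lie below, and edKO replicate 33 (diamond) is the lowest edKO point of most genes.

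The mitochondrial pool was also set against the nuclear machinery as a whole. The 20 nuclear genes summed to 794, 804, 865 and 683 in edKO and 796, 859 and 820.1 in WT. The ratio of the 13 mRNAs to these 20 genes was 162, 120.1, 126 and 163 in edKO, against 147, 90.7 and 98.00 in WT, where WT replicate 1 lay inside the edKO range and the other two below it. edKO replicate 33 had the most reads and the lowest sum of nuclear members, and it was the lowest edKO library for 15 of the 20.

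The promoters of the nuclear members were searched because their shared regulators act there. Windows of 250 bases before and 50 after the annotated start (RefSeq, GRCm38.p6) were matched for 19 of the 20 genes, Peo1 as Twnk, and read on both strands. CCGGAAG, the core bound by GABPA and other ETS factors, was found in 11 of 19: Gabpa, Gfm1, Mterf1a, Polg, Polg2, Polrmt, Slirp, Ssbp1, Tefm, Tfam and Twnk. Among all 10505 genes of the table with a promoter 19.5% held it, and among all 32851 promoters 8.86%. The palindrome bound by NRF1, GCGCA followed directly by its reverse complement TGCGC, was in 0 of 19 (2.28% of table genes), and the repeat bound by RXR heterodimers, AGGTCA and AGGTCA with 1 base of any kind between them, in 0 of 19 (0.0571%). AAGATGGC, bound by YY1, was in Gabpa and Slirp (5.09%). These are exact letter matches in short windows and say nothing of binding. None of the 4 motifs contains another, although CCGGAAG ends in the AAG that begins AAGATGGC. Tfam, the packaging and transcription factor, and Polg, the member with the lowest p, are printed with CCGGAAG in capitals, 5′ to 3′ on the gene's own minus strand.
Tfam, chr10:71237995-71238294: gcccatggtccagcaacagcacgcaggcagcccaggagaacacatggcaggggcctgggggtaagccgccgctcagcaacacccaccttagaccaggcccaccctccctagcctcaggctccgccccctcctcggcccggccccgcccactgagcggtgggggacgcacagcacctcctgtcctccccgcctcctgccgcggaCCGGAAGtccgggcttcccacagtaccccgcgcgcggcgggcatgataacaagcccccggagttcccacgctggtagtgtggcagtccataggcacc
Polg, chr7:79466224-79466523: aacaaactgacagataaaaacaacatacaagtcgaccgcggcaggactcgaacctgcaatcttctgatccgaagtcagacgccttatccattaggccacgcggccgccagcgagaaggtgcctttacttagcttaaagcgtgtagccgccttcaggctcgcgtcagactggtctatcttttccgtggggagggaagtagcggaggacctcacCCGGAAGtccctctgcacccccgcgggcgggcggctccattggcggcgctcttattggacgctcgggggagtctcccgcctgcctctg
Both carry the motif within the 50 bases before the RefSeq start. The GENCODE M21 span given above for each gene begins further upstream and includes the motif. The differences of the genes had opposite signs, -0.21 for Tfam and 0.34 for Polg.

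Wider lists of the same pathway were mostly without calls. Of 15 genes of mitochondrial DNA maintenance and nucleotide supply, 0 passed (median -0.039). The most abundant were Slc25a36, a carrier of pyrimidine nucleotides, at 66.6 ± 6.01 in edKO and 52.6 ± 2.21 in WT with the groups apart (adjusted p = 0.0804), and the membrane protein Mpv17, at 62.7 ± 5.90 in edKO and 66.2 ± 3.95 in WT. Of 23 measured genes of mitochondrial RNA processing and decay 0 passed (median 0.055), with Grsf1, a protein of RNA granules, at 192 ± 12.2 in edKO and 178 ± 1.999 in WT and Fastk at 142 ± 6.94 in edKO and 157 ± 11.6 in WT. Of 17 translation factors 0 passed (median -0.060). Tufm, the elongation factor that brings tRNAs to the ribosome, stood at 177, 162, 179 and 180.01 in edKO, against 217, 205 and 191 in WT, apart and lower in edKO (difference -0.23, adjusted p = 0.167). Oxa1l, which inserts the new proteins into the inner membrane, averaged 140.4 ± 14.1 in edKO and 152 ± 6.93 in WT. Of 21 aminoacyl-tRNA synthetases 0 passed (median -0.060), with Iars2 at 123 ± 9.24 in edKO and 134 ± 2.94 in WT and Lars2 ranging from 315 to 925 in edKO and from 355 to 812 in WT. Of 82 mitochondrial ribosomal protein genes 0 passed, with 61 of 82 differences negative (median -0.10, range -1.26 to 0.26). Their summed level was 3949 to 4180 in edKO and 4864, 4240 and 3918 in WT replicates 1, 2 and 28, so WT replicate 28 lay below every edKO library. Mrpl42 averaged 163 ± 4.54 in edKO and 174 ± 22.9 in WT and Mrpl12 152 ± 19.2 in edKO and 174 ± 33.8 in WT. At an unadjusted limma p under 0.05 these 5 lists held 3, 4, 1, 1 and 6 genes, where 19.2% of all genes were under it. edgeR and voom called 0 of them, and DESeq2 called Slc25a33 and Slc25a36 higher and Mrpl18, Mrpl49 and Mrpl55 lower in edKO, where it called 7.63% of all genes. Of 83 nuclear respiratory chain subunits 66 differences were negative (median -0.072) and 1 passed, Cox6b2, a minor isoform of a complex IV subunit, at 3.87 ± 0.438 in edKO and 6.93 ± 0.401 in WT (difference -0.71, limma adjusted p = 0.0286). The 83 summed to 37849 to 39845 in edKO and 45455, 39721 and 37241 in WT replicates 1, 2 and 28, with WT replicate 28 again below every edKO library. Over all genes 4.21% passed, the groups stood apart for 17.4% and the median was -0.0036.

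Of 13 coactivators and partner factors of mitochondrial biogenesis 1 passed, higher in edKO, and the median was 0.11. Ppargc1a, the coactivator PGC-1α, which drives nuclear and mitochondrial respiratory genes with NRF1, GABP and the estrogen-related receptors, stood at 144, 128, 143 and 104 in edKO, against 74.6, 95.9 and 94.2 in WT, with the groups apart. The difference was 0.55 (1.46-fold, 95% interval 1.20 to 1.78, limma adjusted p = 0.0421). Of all genes 8.41% were apart and higher in edKO, and 2.08% passed and were higher. The call was lost without any single library other than edKO replicate 33 (adjusted p 0.0661 to 0.166), with no mean-variance trend (0.103), when libraries were rescaled without the mitochondrially encoded genes (0.0616), and with edgeR (0.0502) and voom (0.0581), while DESeq2 gave 0.00416. Its relatives Ppargc1b and Pprc1 averaged 14.03 ± 2.83 in edKO and 12.4 ± 2.76 in WT, and 19.2 ± 2.68 in edKO and 21.2 ± 3.57 in WT. The estrogen-related receptor Esrra averaged 108 ± 7.61 in edKO and 108 ± 4.88 in WT (difference -0.0026). Ppara, an RXR partner receptor, averaged 7.96 ± 2.12 in edKO and 4.57 ± 1.38 in WT (adjusted p = 0.137), and Myc 23.5 ± 9.80 in edKO and 13.4 ± 1.06 in WT (adjusted p = 0.228). The GABP partner subunits Gabpb1 and Gabpb2 had differences of 0.10 and 0.19.

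Markers of the cell types in the heart were read beside these values. All 10 cardiomyocyte markers were in the table, with summed levels of 50008 to 53098 in edKO and 48759.7 to 56422 in WT, and 0 passed. All 7 erythroid markers were present, none at 0, and summed to 53861, 32499, 41112 and 27777 in edKO and 40446, 24103 and 28388 in WT. The 7 fibroblast markers summed to 2319, 3298, 2420.4 and 4550.1 in edKO and 3828, 3619 and 4541 in WT. The 7 endothelial markers (1028 to 1214 in edKO and 935 to 1209 in WT), 6 of smooth muscle and pericytes (1219 to 1678 in edKO and 1159 to 1958 in WT), 7 of macrophages (70.4 to 100.1 in edKO and 79.95 to 90.5 in WT) and 4 of the epicardium (92.2 to 189 in edKO and 135 to 149.97 in WT) overlapped in their sums, and of 3 nerve markers the 2 in the table summed to 4.93 to 7.24 in edKO and 6.70 to 10.6 in WT. Of 4 skeletal muscle markers 2 were in the table, Acta1 and Myh8, with their sum lower in edKO and the groups apart (53.1 to 114 in edKO and 118 to 230.1 in WT), and of 4 liver and lung markers only Alb, higher and apart (19.3 to 29.1 in edKO and 17.3 to 17.8 in WT). The nuclear-retained RNAs Malat1, Neat1 and Meg3 summed to 821, 323, 571 and 713 in edKO and 283, 386 and 327 in WT, and Neat1 passed (adjusted p = 0.0320). Among all genes the groups stood apart for 17.4%. The part of these markers in the values of the 33 genes was not tested.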

How the data were processed

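RNA of whole hearts was sequenced from 4 edKO and 3 WT newborn mice. Per the labels' protocols, total RNA was isolated with RNeasy, amplified to cDNA by Ovation RNA-seq v2 and read as single 61-nt reads. GRCm38, limma, RSEM 1.3.1 and cutadapt stand in the submitters' processing notes. For the annotation release, the strand setting and the order of steps, nothing is given in the sources used here. In 1 table, the deposited signal values are the authors' normalised reads per 1000000. Each equals whole reads plus 0.5 over an effective library size, which gave whole reads for 100% of 96516 values (tolerance 1e-06, relative). This scale hides a change shared by most transcripts. Every listed gene, hence every member, had at least 1 read per 1000000 in 3 or more libraries. Genes were placed with GENCODE M21 (13721 identifiers, 99.5%; 82 rows have no symbol). No libraries were duplicates (chi-square per degree of freedom 9.06 to 48.2 within groups).

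The test was limma 3.58.1 (R 4.3.3), with a mean-variance trend and no covariate, on the scale log2(value + 1), adjusted over all 13788 genes. Since the values are normalised, the count test (edgeR 4.0.16), DESeq2 1.42.0 and voom, run on the recovered reads, are alternatives. The other alternatives were pseudocounts of 0.1 and 5, a minimum mean of 1, no trend, robust variance, library weights, 3 other scalings and leaving out each library. Adding the nuclear copies was chosen after seeing the data. Fits were tested on simulated data. The labels call the libraries biological replicates. The limma p-values set the group difference against the spread between these libraries, moderated across all genes. A log2(value + 1) difference understates the change of low genes.

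The members and lists were chosen with earlier results of these data known. All members are named; of each wider list, the called genes or, with none called, the 2 most abundant. The other coactivators, the Mterf relatives, Snw1, the copies and genes called by another tool were named after their values were seen. The result of 1 cell type marker is not reported here. Promoters are RefSeq sequences (GRCm38.p6). Tables and figures were made in Python 3.11.15 with pandas 2.3.3, numpy 2.4.6 and matplotlib 3.10.9.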

Additional observations from a re-analysis of the deposited data

How the results depend on the processing

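No paired analysis was possible because edKO and WT share no replicate number. The 13 mitochondrial mRNAs and the 20 nuclear genes held 0 calls under all 20 alternatives. The lowest adjusted p of a member was 0.0778 (Polg, without edKO replicate 33). The median difference of the mitochondrial mRNAs ranged from 0.10 (quantile normalisation) to 0.49 (without WT replicate 1), and that of the nuclear genes from -0.11 to 0.0040. Quantile normalisation forces the libraries to 1 distribution, which draws their highest values together, so the low end is not an independent check. Under it mt-Cytb fell to 0.045 and mt-Co2 to 0.063, while mt-Nd4l stayed at 0.40. Of the single genes' values under the alternatives, 632 kept their sign and side of the threshold and 28 changed sign.

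The calls over all genes, 580 in the report, numbered 370 with no trend, 1284 with library weights and 1052 with DESeq2, which gave 7 genes no adjusted p. Leaving out 1 library gave 222 to 1177 calls. They numbered 364, 624, 345 and 1177 without edKO replicates 5, 6, 15 and 33, and 249, 222 and 252 without WT replicates 1, 2 and 28. edgeR gave 534 and voom 429. The percentage of calls that were higher lay between 42.2 and 54.6.

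Mterf1a changed sign to -0.0033 with pseudocount 0.1, -0.0028 with quantile normalisation, -0.015 when libraries were rescaled without mitochondrial genes, and -0.088 with voom. Library weights turned Nrf1 to 0.0064 and Polrmt to 0.022. Quantile normalisation gave 0 for mt-Co1 and -0.063 for mt-Nd1, and the rescaling -0.0046 for Gabpa and -0.0011 for Ssbp1. Over the fits without 1 library, signs changed within -0.049 to 0.27 for Fastkd1, -0.17 to 0.19 for Mterf1a, -0.14 to 0.050 for Nrf1, -0.037 to 0.087 for Ssbp1, -0.035 to 0.11 for Gabpa, -0.21 to 0.16 for Slirp, -0.11 to 0.055 for Polrmt, -0.021 to 0.14 for Polg2 and -0.057 to 0.29 for mt-Nd3. Apart from mt-Co1 under quantile normalisation, which is 0 by construction, the cause was not tested. With 3 and 4 libraries the intervals of the mitochondrial mRNAs span both no difference and a clear one, as 0.849-fold to 1.95-fold for mt-Co1.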
